A study of Homo sapiens with 6 samples.

Results

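The MMP, ADAMTS and TIMP families were described in HCCLM3 cells, an established human hepatocellular carcinoma cell line with high metastatic capacity. Members were the protein-coding genes of the deposited expression table whose symbols were MMP, ADAMTS or TIMP followed by the number of the gene. The rule found 43 members among 35856 genes, of which 20 were MMPs, 19 were ADAMTS genes and 4 were TIMPs. Polyadenylated RNA was measured in 3 libraries of cells transfected with pcDNA3.1, an expression vector, carrying the long non-coding RNA LINC00862, and in 3 of cells given the empty vector. The first group is called LINC00862 below, and the second, which the sample labels shorten to NC, is called Empty. The study asked what the overexpression of LINC00862 changes in hepatoma cells. Whether the RNA came from transiently or stably transfected cells is not given in the sources used here, and nothing says that the replicates were separate cultures. The p-values therefore measure only the spread between these samples, which may be technical, and an effect of LINC00862 cannot be told apart from any other difference between the cells of the groups.

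The overexpressed RNA had 11, 21 and 6 counts in Empty against 145, 121 and 76 counts in the LINC00862 group. Every LINC00862 library was above every Empty library, as the labels say. The log2 fold change was 3.22 ± 0.53 (standard error; edgeR quasi-likelihood test, Benjamini-Hochberg adjusted p = 0.000583), and it was 3.83 without Empty replicate 2.

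The labelled cell type was checked against 8 hepatocyte markers. In Empty, albumin (ALB) was at 0, 0 and 0.0234 FPKM, transthyretin (TTR) was at 0 in all 3 libraries, and the hepatocyte factor HNF4A was at 0, 0 and 0.00710 FPKM. All 3 were called higher in LINC00862, where ALB was at 1.61, 1.71 and 1.21 FPKM, TTR at 0.419, 0.640 and 0.334 FPKM and HNF4A at 0.0594, 0.0479 and 0.0268 FPKM. Fibrinogen beta (FGB), at 1.88, 1.69 and 1.68 FPKM, and SERPINA1, at 1.11, 1.22 and 1.53 FPKM, were present in Empty. No other marker of the list passed 0.189 FPKM there. FGB was called higher in LINC00862. SERPINA1 was called lower, at a mean of 0.0950 FPKM there (log2 fold change -3.55 ± 0.36, edgeR adjusted p = 3.20e-05). The oncofetal markers were near 0: AFP lay between 0.0660 and 0.135 FPKM in Empty and was at 0 in every LINC00862 library, and GPC3 was at 0 in every Empty library and reached 0.0300 FPKM at most in LINC00862. Of 5 epithelial markers, the keratins KRT18 and KRT8 were abundant in Empty, with means of 153 and 84.5 FPKM, while EPCAM, CDH1 and KRT19 were low there, with means of 0.547, 0.261 and 0.0315 FPKM.

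Matrix metalloproteinases (MMPs) are zinc-dependent enzymes that cut collagens, proteoglycans and other proteins of the extracellular matrix, and most are secreted as inactive precursors. ADAMTS enzymes are related secreted proteases with thrombospondin repeats, which cut proteoglycans, trim procollagens or cleave von Willebrand factor. TIMPs, the tissue inhibitors of metalloproteinases, bind the active site of these enzymes and block it, and the balance of proteases and inhibitors is known for its part in the invasion of liver tumours.

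Most of the tested members were lower in the LINC00862 group. Of the 43 members, 36 had enough counts to be tested, and at a false discovery rate of 0.05 21 fell, 9 rose and 6 were not called. Among all 20741 tested genes, 29.8% were called lower, 34.4% were called higher and 64.2% were called in either direction, against 58.3%, 25.0% and 83.3% of the tested members. The median log2 fold change was -2.38 over the tested members and 0.11 over all tested genes. Members at 0 in a whole group, set to the bound that 3 counts per library allow, stayed on their side of the member median. It therefore could not move. The member median was -1.14 on the log2(FPKM + 0.1) scale and -0.28 on the log2(FPKM + 1) scale. The filter bears on the counts of calls, because 9 members reached its minimum in every library of 1 group and in none of the other and so had to differ. Of the 18 members that reached it in all 6 libraries, 11 fell, 3 rose and 4 were not called. The share among all genes that reached it in all 6 libraries was not computed, so this count has no matching background. In bulk RNA, a smaller number of cells expressing a gene and less of its RNA in each cell cannot be told apart.

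Calls are given by family, and differences between the families were not tested. The filter fixed part of these counts. ADAMTS5, ADAMTS9, ADAMTS12, ADAMTS16, ADAMTS17, ADAMTS20, MMP7, MMP26 and MMP28 reached its minimum in every library of 1 group and in none of the other. All 4 TIMPs fell, and of the 15 tested ADAMTS genes 11 fell and 4 rose. Among these, the call of TIMP4 was lost without any 1 of 5 libraries (adjusted p-values up to 0.117 by edgeR), and those of ADAMTS3, ADAMTS4 and ADAMTS10 each depend on 1 or more libraries, given with the genes below. Of the 17 tested MMPs, 6 fell, 5 rose and 6 were not called, a share of calls (64.7%) near that of all tested genes. Median log2 fold changes were -3.80 for the TIMPs, -2.90 for the tested ADAMTS genes and -0.66 for the tested MMPs. At 1 FPKM or more on average in a group there were 15 members, 14 of them in Empty and 4 in LINC00862. Of these 15, 12 fell, 2 rose (MMP7 and MMP15) and 1, MMP1, was not called. Of the 13607 tested genes of the whole table at that level in a group, 38.2% were lower and 32.4% were higher. A gene that reaches the level in only 1 group tends to differ for that reason, and of the 3 members at the level in both groups, TIMP1 and TIMP2 fell and MMP15 rose, against 38.3% lower and 24.7% higher among all tested genes at the level in both groups.

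The promoters of the members with the largest rises and falls at this level are shown because genes of the same family moved in opposite directions. MMP7 and MMP15 were the rises, and ADAMTS12, MMP14 and MMP2 were the largest falls. MMP2 has no entry in the RefSeq promoter table and is not shown; 24 of the 43 members matched the table (GRCh38.p14), which holds 300 bases for each gene. Printed are the bases before the gene as the deposited table has it, 5′ to 3′ on the strand of the gene. Capitals mark matches on either strand to TGANTCA (the AP-1 motif), AGGAAG (the PEA3 motif of ETS factors), GGGCGG (the GC box) or TATAAA (the TATA box), and no match overlapped another. The promoter of MMP7, a secreted protease of few domains, lay at chr11:102530751-102530997 on the minus strand. That of MMP15, a membrane-type protease, lay at chr16:58025504-58025753 on the plus strand, and that of MMP14, a membrane-type protease that activates the precursor of MMP2, at chr14:22836335-22836559 on the plus strand. The promoter of ADAMTS12, which cuts cartilage oligomeric matrix protein, lay at chr5:33891991-33892240 on the minus strand.
MMP7: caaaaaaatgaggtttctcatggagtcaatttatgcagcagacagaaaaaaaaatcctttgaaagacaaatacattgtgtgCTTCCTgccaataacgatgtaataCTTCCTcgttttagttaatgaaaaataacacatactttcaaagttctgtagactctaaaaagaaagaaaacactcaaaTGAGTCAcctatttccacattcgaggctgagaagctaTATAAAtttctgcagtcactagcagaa
MMP15: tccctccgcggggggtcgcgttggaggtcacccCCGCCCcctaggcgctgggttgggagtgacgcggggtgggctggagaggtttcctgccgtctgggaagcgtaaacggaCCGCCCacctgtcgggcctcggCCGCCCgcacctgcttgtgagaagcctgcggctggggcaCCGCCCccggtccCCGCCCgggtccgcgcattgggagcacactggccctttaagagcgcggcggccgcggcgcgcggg
MMP14: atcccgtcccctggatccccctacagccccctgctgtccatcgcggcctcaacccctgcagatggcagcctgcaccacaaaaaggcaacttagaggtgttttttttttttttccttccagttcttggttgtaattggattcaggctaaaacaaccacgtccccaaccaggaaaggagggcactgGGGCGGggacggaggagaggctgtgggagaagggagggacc
ADAMTS12: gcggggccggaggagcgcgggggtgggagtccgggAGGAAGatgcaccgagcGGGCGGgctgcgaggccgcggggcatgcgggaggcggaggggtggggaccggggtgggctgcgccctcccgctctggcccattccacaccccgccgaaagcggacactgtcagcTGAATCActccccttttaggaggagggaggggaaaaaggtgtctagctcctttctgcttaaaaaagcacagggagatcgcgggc
MMP7 held an AP-1 match starting 67 bases before the RefSeq start, a TATA box match 30 bases before it and 2 PEA3 matches farther out, at 169 and 145 bases. MMP15 held 5 GC box matches and MMP14 held 1, and neither window held the other motifs. ADAMTS12 held 1 match each to the AP-1, PEA3 and GC box motifs. The bases were 33.6% G or C for MMP7, 74.8% for MMP15, 68.4% for ADAMTS12 and 56.4% for MMP14. Over the full 300 bases, the AP-1 motif was found in 7.71% of all 35116 promoters of the table and in 3 of the 24 matched members (MMP7, MMP10 and ADAMTS12). The PEA3 motif was in 33.6% of all promoters and 6 of the 24, the GC box in 45.0% and 19 of the 24, and the TATA box in 11.5% and 5 of the 24. A match is a description of the letters, and binding was not measured.

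The inhibitors TIMP1 and TIMP2 were the most abundant members in Empty by mean level. TIMP1 (ENSG00000102265, chrX:47582408-47586789 on the plus strand in hg38), a secreted inhibitor of most MMPs, was at 68.5, 107 and 130.1 FPKM in Empty and at 3.90, 3.13 and 2.42 FPKM in LINC00862. The groups did not overlap, and the lowest Empty library was far above the highest LINC00862 library. The log2 fold change was -4.86 ± 0.32 (edgeR adjusted p = 2.06e-06). TIMP2 (ENSG00000035862, chr17:78852977-78922401, minus strand), which also takes part in the activation of the MMP2 precursor on the cell surface, was at 94.7, 67.2 and 71.7 FPKM in Empty and at 4.50, 4.46 and 4.13 FPKM in LINC00862. It fell with a log2 fold change of -3.97 ± 0.16 (edgeR adjusted p = 1.46e-07). In Empty the ranges of TIMP1 and TIMP2 overlapped, so their order was not resolved, and in LINC00862 TIMP2 was above TIMP1 in every library.

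TIMP3 (ENSG00000100234, chr22:32801705-32863041, plus strand), the inhibitor that stays bound to the matrix and blocks ADAMTS enzymes as well as MMPs, was far less abundant. Its levels were 2.16, 1.91 and 1.62 FPKM in Empty and 0.143, 0.155 and 0.105 FPKM in LINC00862, with no overlap. The log2 fold change was -3.62 ± 0.26 (edgeR adjusted p = 3.78e-06). TIMP4 was the least abundant, with 33, 34 and 37 counts in Empty and 0, 12 and 0 counts in LINC00862. Its call was the least firm of the 4: the log2 fold change was -2.98 ± 1.13 (edgeR adjusted p = 0.0434), and the call was lost without any 1 library other than LINC00862 replicate 2, with adjusted p-values up to 0.117. Without LINC00862 replicate 2 the group was at 0 and the fitted log2 fold change was -8.09. TIMP1, TIMP3 and TIMP4 each lie within a synapsin gene of the opposite strand (SYN1, SYN3 and SYN2), whose mean levels did not pass 0.0608 FPKM in either group.

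Of the 6 membrane-type MMPs, which are anchored at the cell surface, 3 fell, 2 rose and 1 was not called. The share called was 83.3%, against 64.2% of all tested genes. By level, MMP14 led this group in Empty and MMP15 led it in LINC00862. MMP14 (ENSG00000157227, chr14:22836560-22849027, plus strand), the most abundant MMP in Empty, was at 31.9, 23.2 and 30.1 FPKM there and at 0.350, 0.417 and 0.425 FPKM in LINC00862. It fell by 5.97 ± 0.20 on the log2 scale, 62.7-fold (edgeR adjusted p = 6.47e-08). MMP15 (ENSG00000102996, chr16:58025754-58046901, plus strand) was at 4.44, 2.89 and 5.35 FPKM in Empty and at 12.1, 13.4 and 9.19 FPKM in LINC00862. It rose 3.07-fold, a log2 fold change of 1.62 ± 0.23 (edgeR adjusted p = 0.000269), and its groups did not overlap. Of the summed FPKM of the 6 membrane-type genes, MMP14 made up 79.1%, 80.7% and 78.9% in Empty and 2.58%, 2.78% and 3.95% in LINC00862. MMP15 made up between 10.1% and 14.0% in Empty and between 85.5% and 89.4% in LINC00862. The sum itself was lower in LINC00862, at 13.6, 15.0 and 10.8 FPKM against 40.3, 28.8 and 38.2 FPKM in Empty.

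Of the other membrane-type genes, MMP24 (ENSG00000125966, chr20:35226690-35276998, plus strand) was at 2.52, 1.67 and 1.75 FPKM in Empty and at 0.151, 0.132 and 0.0743 FPKM in LINC00862. It fell by 3.85 ± 0.32 on the log2 scale (edgeR adjusted p = 9.26e-06). MMP24OS, a gene of the opposite strand that overlaps it, had more counts than MMP24 in both groups, and the sources used here do not say whether the counting used the strand. MMP16 fell from a mean of 0.653 to 0.0890 FPKM, 6.28-fold. MMP17, which is held by a lipid anchor, rose from 0.272 to 0.798 FPKM, 3.23-fold. MMP25, the other member with a lipid anchor, was at 0.227 FPKM in Empty and 0.130 FPKM in LINC00862, overlapped between the groups and was not called (edgeR adjusted p = 0.270).

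The gelatinases cut denatured collagen and the type IV collagen of basement membranes. MMP2 (ENSG00000087245, chr16:55389700-55506239, plus strand) was at 9.81, 7.90 and 10.2 FPKM in Empty and at 0.0998, 0.173 and 0.175 FPKM in LINC00862. The lowest Empty library was well above the highest LINC00862 library, and MMP2 fell by 5.77 ± 0.27 on the log2 scale, 54.4-fold (edgeR adjusted p = 2.99e-07). Its activator MMP14 and its partner TIMP2 fell in the same libraries. MMP9, the other gelatinase, was rare in both groups, with 27, 39 and 28 counts in Empty and 37, 22 and 0 counts in LINC00862. The groups overlapped, and MMP9 was not called (log2 fold change -0.66 ± 0.95, edgeR adjusted p = 0.565). The log2 fold change was -0.09 without LINC00862 replicate 3 and -1.39 without LINC00862 replicate 1, and neither was called.

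The collagenase MMP1 (ENSG00000196611, chr11:102789919-102798160, minus strand), which cuts fibrillar collagens, differed little. It was at 1.25, 1.51 and 1.50 FPKM in Empty and at 0.948, 1.18 and 0.808 FPKM in LINC00862. The FPKM values did not overlap, but the log2 fold change of -0.38 ± 0.28 did not pass the test (edgeR adjusted p = 0.271). MMP13, the other collagenase in the table, had 8 counts in LINC00862 replicate 3 and none in the other libraries.

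The matrilysins are the smallest MMPs and lack the domain that other MMPs use to hold collagen. MMP7 (ENSG00000137673, chr11:102520508-102530750, minus strand), known from glandular and biliary epithelium, was at 0.0260, 0.0220 and 0.0420 FPKM in Empty and at 4.45, 3.82 and 4.17 FPKM in LINC00862. These levels rested on 4, 4 and 7 counts in Empty and on 791, 585 and 650 counts in LINC00862. MMP7 rose by 7.13 ± 0.35 on the log2 scale (edgeR adjusted p = 3.77e-07). It was among the least abundant MMPs in Empty and second to MMP15 in LINC00862, where it made up 20.7%, 17.0% and 23.2% of the summed MMP level.

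MMP26, the other matrilysin, had no count in any Empty library and 32, 51 and 18 counts in LINC00862, at least 10.8-fold higher against a floor of 3 counts per library. In the table MMP26 spans 14 other genes on both strands, 13 of them olfactory receptor genes or their pseudogenes. All 14 were at 0 in every Empty library, and together they had 93, 103 and 71 counts in the LINC00862 libraries. Of these genes, 6 lie on the strand of MMP26 and 8 on the opposite strand. Whether the counting used the strand is not given, so reads of MMP26 and of genes on either strand may not be separable. The count of MMP26 is therefore uncertain.

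Among the stromelysins, which cut proteoglycans and activate other MMP precursors, MMP10 rose from a mean of 0.0789 to 0.713 FPKM. Its counts were 4, 6 and 19 in Empty and 80, 81 and 101 in LINC00862, and its log2 fold change of 3.25 ± 0.63 (edgeR adjusted p = 0.00155) was 4.23 without Empty replicate 3. MMP3 overlapped narrowly between the groups, with 0.709 FPKM in the highest Empty library and 0.687 FPKM in the lowest LINC00862 library. It was not called (log2 fold change 0.81 ± 0.38, edgeR adjusted p = 0.0927), although it was with upper quartile scaling (adjusted p = 0.0403). MMP11, at 0.231 FPKM in Empty and 0.0941 FPKM in LINC00862, was not called (edgeR adjusted p = 0.119) except without LINC00862 replicate 3 (adjusted p = 0.0424).

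MMP7, MMP10, MMP1, MMP3, MMP12 and MMP13 stand in this order on the minus strand of chromosome 11, over 435 kb. Within this stretch MMP7 and MMP10 rose, MMP1 and MMP3 were not called, and MMP12 and MMP13 had too few counts to be tested. Between MMP7 and MMP10, AP000619 (ENSG00000225678), which is not a member, rose on few counts (log2 fold change 2.89 ± 1.10, edgeR adjusted p = 0.0447). TMEM123 and DCUN1D5, the protein-coding genes beside the stretch that had counts, both fell, by 0.81 ± 0.19 and 0.79 ± 0.14 on the log2 scale. Neighbouring members were therefore not all called in the same direction, and differences between them were not tested.

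Of the remaining MMPs, MMP19 (ENSG00000123342, chr12:55835433-55842966, minus strand), a basement membrane protease, was at 1.03, 1.18 and 1.68 FPKM in Empty and at 0.0246, 0.0305 and 0.0321 FPKM in LINC00862. It fell by 5.22 ± 0.39 on the log2 scale (edgeR adjusted p = 4.59e-06). MMP28 had 16, 14 and 25 counts in Empty and none in LINC00862, at least 6.38-fold lower. MMP23B, with 12, 16 and 21 counts in Empty and 3, 3 and 15 in LINC00862, was not called (edgeR adjusted p = 0.276) except without LINC00862 replicate 3 (adjusted p = 0.0400) or on the log2(FPKM + 0.1) scale (adjusted p = 0.0483), and reads may be shared with its near-identical copy MMP23A. MMP12 and MMP21 were not tested.

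**Figure D1:**
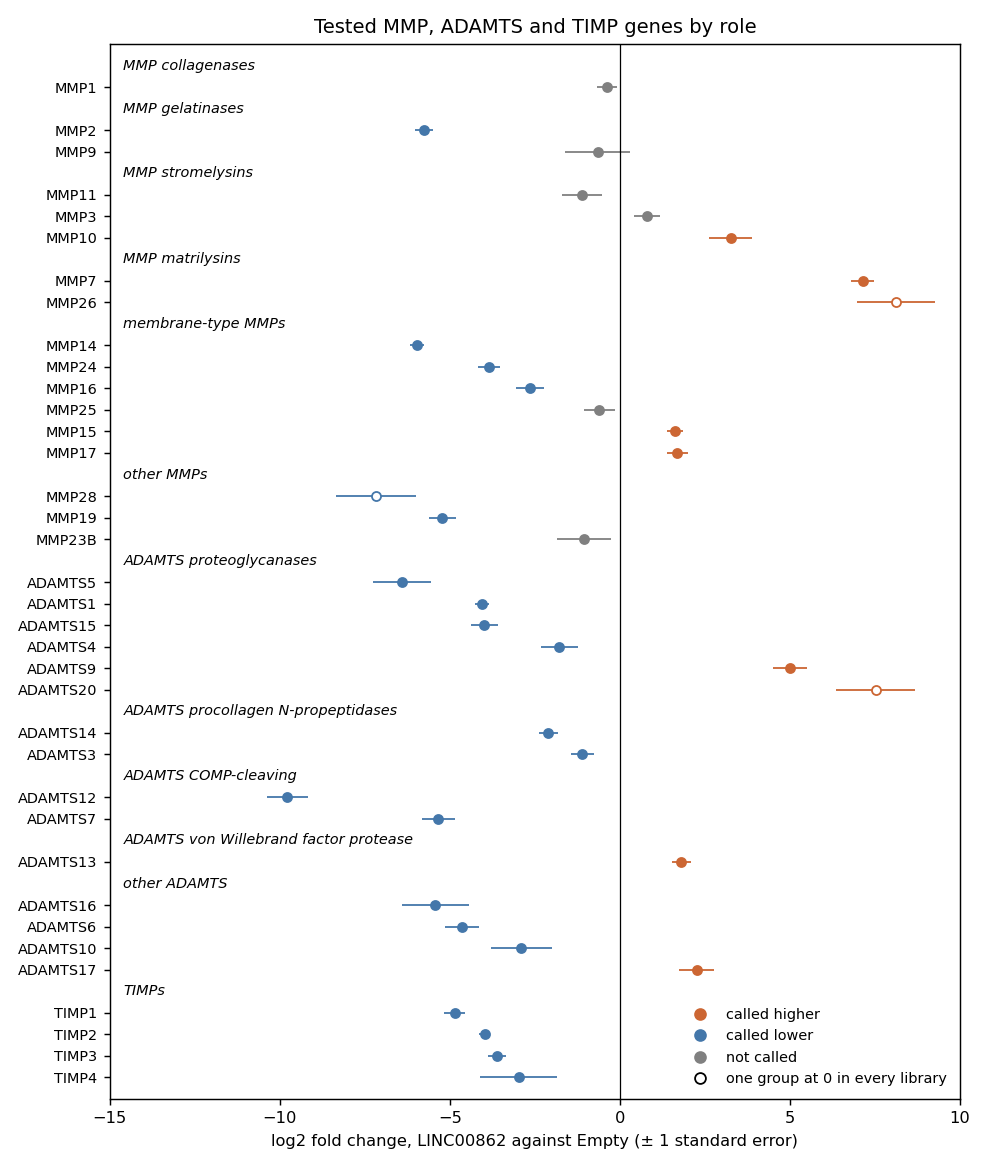
Log2 fold change of LINC00862 against Empty for the 36 tested members by role, with bars of 1 standard error; colours mark genes called higher, called lower and not called, and open points are genes at 0 in every library of 1 group. All 4 TIMPs and 11 of 15 ADAMTS genes lie on the lower side, and the MMPs are spread over both.

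Among the ADAMTS proteoglycanases, which cut aggrecan, versican and related proteoglycans, ADAMTS1 (ENSG00000154734, chr21:26835755-26845409, minus strand) was the most abundant. It was at 13.9, 12.6 and 8.79 FPKM in Empty and at 0.710, 0.561 and 0.596 FPKM in LINC00862. It fell 16.6-fold, by 4.05 ± 0.21 on the log2 scale (edgeR adjusted p = 4.90e-07). ADAMTS1 made up between 52.4% and 54.4% of the summed ADAMTS level in Empty and between 24.1% and 29.9% in LINC00862. ADAMTS5, which lies 72.5 kb from ADAMTS1 on the same strand, also fell, from 196, 95 and 101 counts in Empty to 4, 0 and 0 counts in LINC00862. ADAMTS15 fell from a mean of 0.415 to 0.0209 FPKM. ADAMTS4, below 0.1 FPKM in both groups, was called lower (log2 fold change -1.78 ± 0.54, edgeR adjusted p = 0.0165), but not with the replicate block and not without Empty replicate 2 or LINC00862 replicate 1 or 2, with adjusted p-values of 0.0904, 0.0760, 0.0534 and 0.0663.

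The other proteoglycanases moved the opposite way. ADAMTS9 had 4 counts in each Empty library and 156, 153 and 67 counts in LINC00862, and it rose by 4.99 ± 0.50 on the log2 scale (edgeR adjusted p = 2.89e-05). ADAMTS20 had no count in Empty and 22, 14 and 29 counts in LINC00862, at least 6.91-fold higher. ADAMTS8 was not tested.

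ADAMTS7 and ADAMTS12 are known to cut cartilage oligomeric matrix protein. ADAMTS12 (ENSG00000151388, chr5:33523535-33891990, minus strand) was at 3.56, 2.39 and 1.99 FPKM in Empty. It was at 0.00574, 0 and 0 FPKM in LINC00862, which rested on 5, 0 and 0 counts against 2263, 1499 and 1279 counts in Empty. Its log2 fold change of -9.78 ± 0.60 (edgeR adjusted p = 1.49e-06) was the largest fall of the families, and its size depends on those 5 counts: without LINC00862 replicate 1 the fitted value was -13.63. ADAMTS7 (ENSG00000136378, chr15:78759206-78811464, minus strand) was at 1.40, 1.45 and 1.33 FPKM in Empty and at 0.0131, 0.0217 and 0.0516 FPKM in LINC00862. It fell by 5.34 ± 0.48 (edgeR adjusted p = 1.53e-05), with a log2 fold change of -6.12 without LINC00862 replicate 3. Its reads may be shared with near-identical ADAMTS7 pseudogenes. ADAMTS7 and MMP28 overlap MORF4L1 and TAF15 on the opposite strand, which were at means of 40.7 and 34.5 FPKM in Empty and 12.3 and 21.2 FPKM in LINC00862, where ADAMTS7 and MMP28 were near or at 0.

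The procollagen N-propeptidases remove the amino-terminal propeptide of fibrillar collagens. ADAMTS14 (ENSG00000138316, chr10:70672506-70762441, plus strand) was at 0.896, 1.29 and 1.01 FPKM in Empty and at 0.222, 0.226 and 0.204 FPKM in LINC00862. It fell 4.33-fold, by 2.11 ± 0.28 on the log2 scale (edgeR adjusted p = 0.000156). ADAMTS3 fell less, from a mean of 0.712 to 0.286 FPKM (log2 fold change -1.11 ± 0.33, edgeR adjusted p = 0.0159), a call lost without LINC00862 replicate 2 (adjusted p = 0.0575). ADAMTS2 was not tested. ADAMTS13, which cuts von Willebrand factor and is made in liver by stellate cells, rose from 0.243 to 0.753 FPKM, 3.50-fold.

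Among the other ADAMTS genes, ADAMTS6 (ENSG00000049192, chr5:65148738-65481920, minus strand) was at 3.54, 3.29 and 2.02 FPKM in Empty and at 0.0371, 0.104 and 0.166 FPKM in LINC00862. It fell by 4.63 ± 0.50 on the log2 scale (edgeR adjusted p = 4.63e-05), with a log2 fold change of -5.24 without LINC00862 replicate 3. ADAMTS10, a paralogue of ADAMTS6 known for its part in fibrillin microfibrils, fell from 0.207 to 0.0239 FPKM (edgeR adjusted p = 0.0192), a call lost without Empty replicate 2 (adjusted p = 0.0703), and its log2 fold change moved from -2.90 to -2.29 without LINC00862 replicate 1. ADAMTS16 fell from 164, 146 and 63 counts in Empty to 8, 0 and 0 counts in LINC00862, and its fitted log2 fold change, like that of ADAMTS5, depends on LINC00862 replicate 1: -5.42 for ADAMTS16 and -6.40 for ADAMTS5 became -9.88 and -9.94 without it. ADAMTS17 rose, from 8, 6 and 7 counts in Empty to 36, 27 and 32 counts in LINC00862. ADAMTS18 and ADAMTS19 were not tested. None of the 7 members that were not tested had a group mean above 0.0697 FPKM.

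Summed over each family, the change was largest in the inhibitors. The TIMPs summed to 166, 176 and 204 FPKM in Empty and to 8.54, 7.89 and 6.65 FPKM in LINC00862. The ADAMTS genes summed to 26.1, 23.2 and 16.8 FPKM in Empty and to 2.37, 2.26 and 2.47 FPKM in LINC00862. The MMPs summed to 53.9, 41.0 and 52.7 FPKM in Empty and to 21.5, 22.5 and 18.0 FPKM in LINC00862. FPKM values did not share a common total. Over all genes they summed to 296336, 354830 and 325534 in Empty and to 429487, 420733 and 512467 in LINC00862. Sums are therefore not on the same scale in the 2 groups, whereas a ratio within a library does not depend on its total. The ratio of protease to inhibitor mRNA, as MMP and ADAMTS levels over TIMP levels, was 0.483, 0.364 and 0.341 in Empty and 2.80, 3.14 and 3.07 in LINC00862. Proteases were thus below inhibitors in every Empty library and above them in every LINC00862 library, though both sums were lower in LINC00862. The ratio describes mRNA, and protein and activity were not measured.

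In order of mean level, Empty was led by TIMP1, TIMP2, MMP14, ADAMTS1, MMP2 and MMP15. The ranges over libraries overlapped between TIMP1 and TIMP2 and between ADAMTS1 and MMP2, and were apart between TIMP2 and MMP14, between MMP14 and ADAMTS1 and between MMP2 and MMP15. In LINC00862 the order was MMP15, TIMP2, MMP7, TIMP1, MMP1 and MMP3. MMP15 was above TIMP2 in every library, TIMP2 and MMP7 changed order between libraries, MMP7 was above TIMP1 in every library although their ranges overlapped, and TIMP1 was above MMP1 in every library.

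Genes that act with these families were taken from lists chosen by function, whose counts of calls stand against 34.4% higher, 29.8% lower and 64.2% called among all tested genes. Plasmin, formed from plasminogen, activates MMP precursors, and of the 6 tested genes listed for plasminogen activation and its inhibitors 5 fell (83.3%, against 29.8% of all tested genes) and none rose. The activator PLAU was at 65.1, 67.4 and 71.1 FPKM in Empty and at 0.380, 0.663 and 0.373 FPKM in LINC00862, a log2 fold change of -7.00 ± 0.26 (edgeR adjusted p = 9.83e-08). The activator PLAT fell as well, from a mean of 2.87 to 0.101 FPKM, as did PLAUR, the surface receptor of PLAU, from 15.0 to 3.06 FPKM, and the inhibitor SERPINE2, from 15.0 to 1.66 FPKM. The falls thus included activators, their receptor and an inhibitor.

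Proprotein convertases cut the prodomains of membrane-type MMPs and ADAMTS enzymes. Of the 3 tested, FURIN was at 10.5 FPKM in Empty and 11.0 FPKM in LINC00862 and was not called (edgeR adjusted p = 0.267), nor was PCSK7 (edgeR adjusted p = 0.576), while PCSK6 rose from 0.0189 to 1.56 FPKM. Among 6 other inhibitors, inducers and partners, 2 rose and 2 fell. LCN2, which binds MMP9 and protects it from degradation, rose from a mean of 0.284 to 57.1 FPKM, and TFPI2, a serine protease inhibitor of the matrix, rose from 0.701 to 4.47 FPKM. RECK, a membrane-anchored MMP inhibitor, fell from 3.03 to 0.615 FPKM, and LRP1, the receptor that clears MMPs and TIMPs from the medium, fell from 11.7 to 0.802 FPKM.

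The ADAM sheddases, membrane-bound relatives of the ADAMTS enzymes, gave 4 falls and 2 rises among 8 tested genes, a share of calls (75.0%) not far from the 64.2% of all tested genes. ADAM12 fell from a mean of 11.0 to 0.215 FPKM, ADAM19 from 2.09 to 0.0474 FPKM and ADAM9 from 38.8 to 6.67 FPKM, while ADAM15 rose from 22.8 to 58.4 FPKM. All 5 tested ADAMTS-like genes, which resemble ADAMTS enzymes but lack the protease domain, fell, among them ADAMTSL3 (2.56 to 0.00617 FPKM) and ADAMTSL1 (2.67 to 0.0146 FPKM). Of 5 tested substrates of the proteases, 2 fell and none rose: fibronectin (FN1) fell from 39.2 to 1.20 FPKM and versican (VCAN), a substrate of ADAMTS1, ADAMTS4, ADAMTS5 and ADAMTS9, fell from 2.41 to 0.0239 FPKM.

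AP-1 and ETS factors bind many MMP promoters, and of the 12 tested 8 rose (66.7%, against 34.4% of all tested genes), 3 fell (25.0%, against 29.8%) and 1 was not called. FOSL1 was at 59.7, 52.7 and 58.9 FPKM in Empty and at 1.96, 1.04 and 1.75 FPKM in LINC00862, a log2 fold change of -4.98 ± 0.27 (edgeR adjusted p = 7.21e-07). ETS1 fell from a mean of 19.2 to 0.651 FPKM. FOS and ETV4 moved the other way, from 7.02 to 43.7 FPKM and from 0.590 to 3.19 FPKM. The factors of these classes thus moved in both directions.

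**Figure D2:**
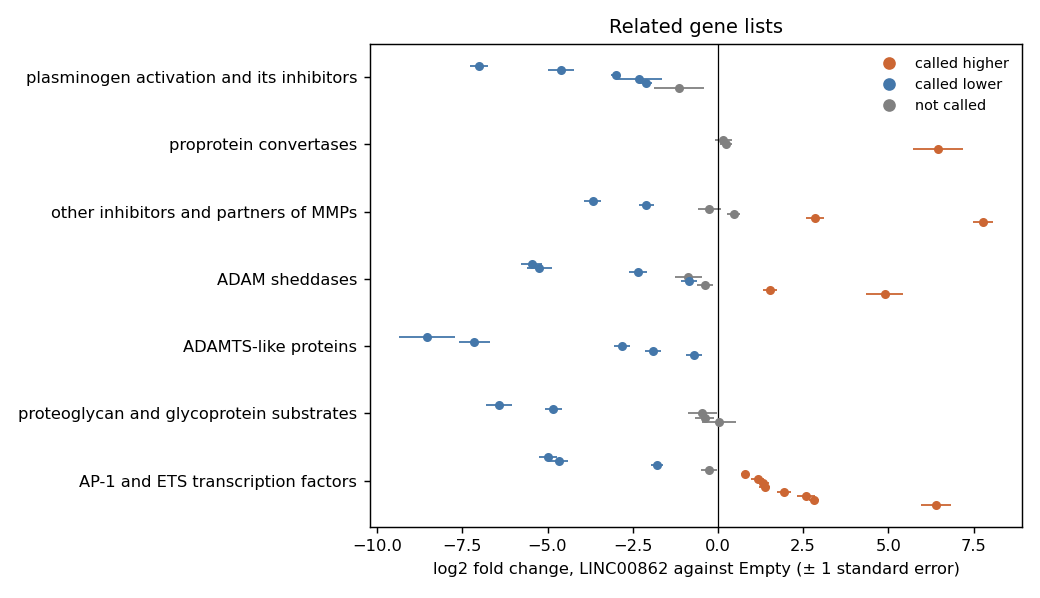
Log2 fold change of LINC00862 against Empty, with bars of 1 standard error, for the tested genes of 7 related lists, 1 point per gene; colours mark genes called higher, called lower and not called. The plasminogen, ADAMTS-like and substrate lists hold no gene called higher, and the AP-1 and ETS list is spread over both sides, from FOSL1 at -4.98 to ETV1 at 6.40.

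Markers of cell types moved with these changes, and their part in the result was not tested. Both groups carry the label HCCLM3, and whether their cells are of the same line was not tested. The calls in these marker lists stand against 34.4% higher, 29.8% lower and 64.2% called among all tested genes. Of 8 hepatocyte markers, 6 rose, 1 fell (SERPINA1) and 1 was not tested. Their sum was 3.03, 2.94 and 3.46 FPKM in Empty and 618, 548 and 539 FPKM in LINC00862, where nearly all of it was FGB. Of 5 epithelial markers 4 rose and KRT8 was not called: EPCAM rose from 0.547 to 159.8 FPKM, and the list, led by KRT18 in both groups, summed to 194, 235 and 287 FPKM in Empty and to 500.2, 463 and 437 FPKM in LINC00862. Of 8 fibroblast and stellate cell markers, which are cell types known for making MMP2 and TIMPs, 2 fell (PDGFRB and ACTA2), 2 rose (COL1A1 and LUM) and 4 were not called. Their sum was 10.2, 9.44 and 9.25 FPKM in Empty, led by PDGFRB, and 12.6, 12.5 and 16.1 FPKM in LINC00862, led by COL1A1.

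Most endothelial and leukocyte markers were not called, but 1 endothelial and 2 leukocyte genes rose and raised the sums. The shares called were 20% and 40%, against 64.2% of all tested genes. Of 5 endothelial markers only CDH5 rose, and the sums were 1.79, 1.20 and 1.39 FPKM in Empty, led by VWF, and 5.52, 5.92 and 4.47 FPKM in LINC00862, led by CDH5. Of 5 leukocyte markers CD68 and CD14 rose, while PTPRC, which is on all leukocytes, stayed at or below 0.361 FPKM in every library and was not called. The leukocyte sums were 3.58, 3.03 and 3.67 FPKM in Empty, led by CD14, and 14.8, 15.0 and 9.08 FPKM in LINC00862, led by CD68.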

How the data were processed

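RNA of 6 libraries was measured, 3 per group. Per the submitters' processing notes, reads were trimmed with cutadapt 1.9, aligned to hg38 with HISAT2 2.0.4, handled with UMI-tools and assembled with StringTie 1.3.4d, and the notes also name edgeR and DESeq2. The authors deposited unnormalised counts per gene and FPKM values. Per the study's methods, the second cDNA strand was marked with dUTP and treated with UDG, so the libraries kept the strand. How the counts were made from UMIs and whether they used the strand is not given in the sources used here. In the table, 22 of the 43 members overlap a gene on the opposite strand. Total counts ran from 58241123 to 68229070 per library. A count of 4 was more frequent (1269 to 1450 genes per library) than a count of 3 (652 to 848) or 5 (397 to 542), so the lowest counts may not be single molecules, and floors of 3 counts per library cover counting error only.

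Genes were filtered with filterByExpr (minimum count 10), scaled by TMM and tested with the quasi-likelihood test of edgeR 4.0.16 in R 4.3.3, with Benjamini-Hochberg adjustment over all 20741 tested genes. The call threshold was a false discovery rate of 0.05. Standard errors are the log2 fold change divided by the square root of the F statistic. The fits were also run on simulated data in which few genes changed. That setting differs from these data, where most tested genes were called, so it does not bear on the calls given here. Levels are FPKM as deposited, with group means over 3 libraries. Alternatives were DESeq2 1.42.0, limma 3.58.1 on log2(FPKM + 1) and log2(FPKM + 0.1), other scalings, every gene with at least 1 count, a test against a 2-fold change, a false discovery rate of 0.01, the replicate number as a block, and each library left out.

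Members with a group mean of at least 1 FPKM were described in full, and called members below that by means or counts. In related lists up to 4 genes at or above that level were named, the largest changes first. In the plasminogen list, 1 gene is not reported here. The members and lists were chosen with earlier results of these data known. Of the rows with a matching symbol, 1 that is not protein coding was left out, and MMP8, MMP20 and MMP27 were not analysed here. Promoter sequences are from RefSeq, and figures were drawn with matplotlib 3.10.9.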

Additional observations from a re-analysis of the deposited data

How the results depend on the processing

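Over the 14 alternative fits, none of the 36 tested members changed direction, and 27 of them also kept their side of the threshold in every fit that tested them. Of the comparisons of a member with an alternative, 480 gave the same call, 20 lost a call and 4 gained one, and the calls that one library decides are given with the genes. Between 7 and 10 members were called higher and between 17 and 22 lower in the alternatives, with 9 higher in each fit that left out 1 library and 18 to 22 lower. At a false discovery rate of 0.01, 9 were higher and 17 lower. Scaling moved the centre of the data: upper quartile factors put the median log2 fold change over all tested genes at 0.32 and plain library totals put it at -0.05, against 0.11, while the member median was -2.16, -2.56 and -2.38. TIMP4 lost its call with upper quartile factors (adjusted p = 0.0564) and with every counted gene tested (0.0784). ADAMTS4, ADAMTS17 and ADAMTS20 lost theirs on the log2(FPKM + 1) scale, and ADAMTS3, ADAMTS4, ADAMTS10 and TIMP4 in the test against a 2-fold change.

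Shared replicate numbers showed no pairing, as deviations of same-numbered libraries correlated at -0.034, -0.016 and -0.002. With the replicate block, 9 members were called higher and 20 lower, and 12098 genes were called in all against 13321. LINC00862 stayed called in every alternative, with log2 fold changes of 2.91 to 3.83 when 1 library was left out and 3.35 with the block. On the log2(FPKM + 1) scale, which compresses low levels, the member median was -0.28. It was -1.14 on the log2(FPKM + 0.1) scale and -1.80 with every counted gene tested. Members below about 10 counts in a group were at the limit of this depth, and the sizes of their fold changes are uncertain.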
